A study of Mus musculus with 9 samples.

Results

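Mouse 2-cell embryos that had been loaded with high glucose and given rat serum carrying a drug the labels call ZGW were compared with control embryos that received neither. The comparison was defined by the labels, but it and the gene lists were chosen with earlier results of these data known. It took 6 of the 9 libraries of the study, 3 in each group. Every gene with enough counts was tested, which were 16964 of the 24454 genes in the deposited table. All embryos were of the ICR strain, an outbred stock, and were grown in culture from the zygote to the 2-cell stage, with 3 embryos pooled in each library. The remaining 3 libraries, from embryos loaded with high glucose alone, entered the estimate of the spread and are given beside some genes as values only. The labels do not say what the drug contains, how much glucose or serum was used, or whether control embryos received drug-free rat serum. Glucose, serum and drug therefore cannot be told apart in this comparison. For short, the embryos that carried high glucose and the serum together are called the ZGW serum group.

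At the 2-cell stage the mouse embryo passes from stored oocyte RNA to transcription of its own genome. Messages made during oocyte growth are held by RNA-binding proteins, translated by lengthening of their poly(A) tails and then degraded. The major wave of embryonic transcription at this stage includes genes that are read only briefly, such as the Zscan4 cluster, and many genes for the translation and protein turnover machinery. Glucose itself is little used by the early cleavage embryo, which lives mainly on pyruvate and lactate, and high glucose is known to slow its development.

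No gene passed the test over all genes. With Benjamini-Hochberg adjustment, edgeR's quasi-likelihood test gave 0 calls among 16964 genes (0%), and limma-voom called 1, Paip1. DESeq2 called 455, 148 of them higher and 307 lower with ZGW serum. At an unadjusted p under 0.05, edgeR gave 714 genes higher with ZGW serum (4.21%) and 959 lower (5.65%). All 3 ZGW serum libraries lay above all 3 control libraries for 9.02% of genes and below them for 7.3%, and these shares are the background for the counts of members below. The median log2 fold change, ZGW serum minus control, was 0.001 over all genes, with quartiles at -0.61 and 0.59. The groups are described below by the values of named genes and lists, none of which passed edgeR's test over all genes.

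Library totals ran from 11934924 to 16916343 counts, and the typical gene had a standard error of 0.78 for its log2 fold change. On distances over all tested genes, libraries of a group were 216.5 ± 14.5 apart (SD, 6 pairs) and libraries of different groups 224.2 ± 16.6 (SD, 9 pairs). The first principal component (26.9% of the variance) set control replicate 1 farthest from ZGW serum replicate 3. List medians and counts are therefore also given without these 2 libraries where they differ much. The labels call the libraries of a group biological replicates but do not name the matings, so p-values measure the spread between these pools. Since each library is a pool of whole embryos, less RNA per cell and fewer cells making it cannot be told apart. Values are CPM, counts scaled to a common library total, in the order of replicates 1 to 3.

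The gene nearest to the threshold was Paip1, lower with ZGW serum. Paip1 encodes a partner of the poly(A)-binding protein that promotes translation of messages with a poly(A) tail. It stood at 3368, 3573 and 2369 CPM in control and 567, 422 and 556 CPM with ZGW serum. Every ZGW serum library lay below every control library by a wide margin, and high glucose alone lay between, at 2284, 1715 and 1232 CPM. The log2 fold change was -2.59 ± 0.29 (SE), with an adjusted p of 0.0511 by edgeR's quasi-likelihood test (Benjamini-Hochberg). The call depended on the processing: Paip1 passed in 5 of 18 alternatives, and over the 18 its adjusted p ran from 7.27e-12 by DESeq2 to 0.726 without control replicate 1 and ZGW serum replicate 3. Its log2 fold change stayed between -2.79 and -2.48 in all 18. The gene lies on chromosome 13 at 119428601 to 119458218 (GRCm38, plus strand), no exon of another gene lies within it, and 0% of its transcript stretches of 50 bases occur in another gene's transcripts.

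**Figure D1:**
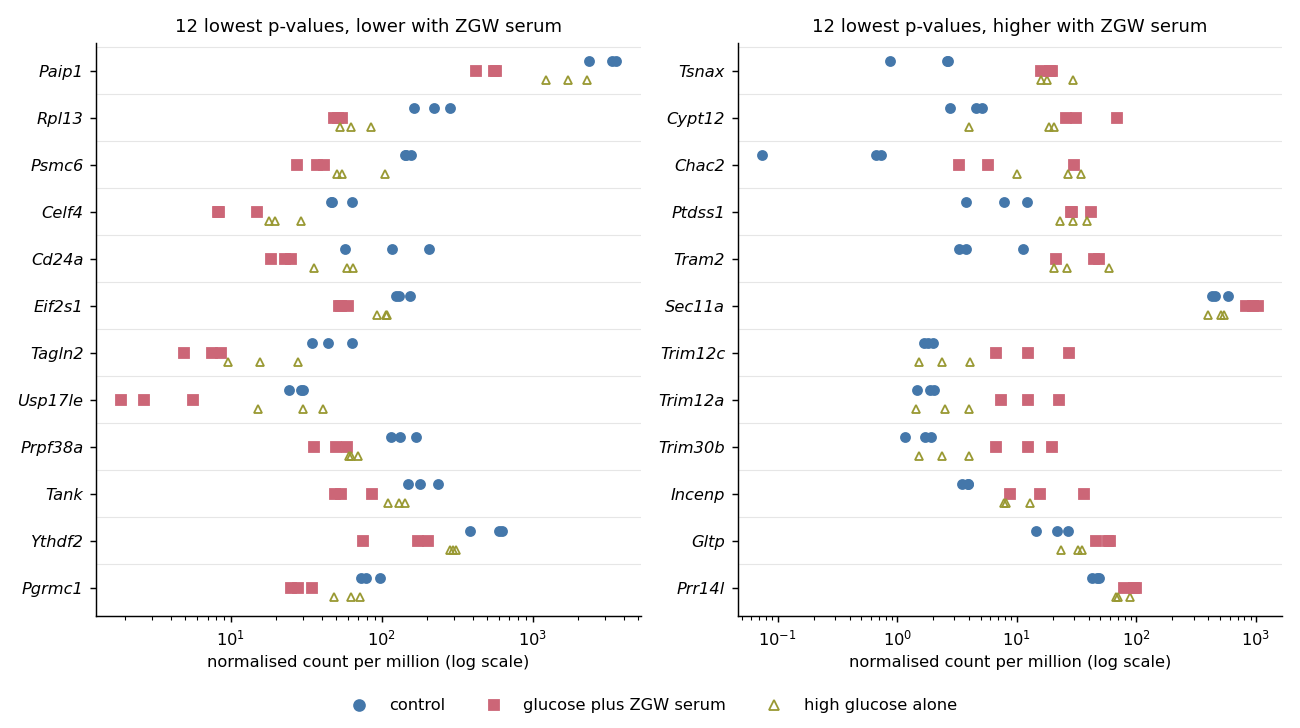
Normalised counts (CPM, log scale, horizontal axis) of the 12 genes of lowest p-value each way with a mean of at least 10 CPM, 1 point per library. Control libraries are circles, ZGW serum libraries squares and high glucose alone triangles. The ZGW serum points of Paip1 lie between 422 and 567 CPM and its control points between 2369 and 3573 CPM.

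The other 11 genes of lowest p-value on the lower side, none of which passed, included several that serve protein synthesis, turnover and RNA processing. Their adjusted p-values ran from 0.186 to 0.338 by edgeR's quasi-likelihood test (Benjamini-Hochberg), and in each the groups did not overlap. Psmc6, an ATPase of the 19S cap that feeds proteins into the proteasome, had 155, 143 and 146 CPM in control and 41.6, 27.3 and 37.3 CPM with ZGW serum. All 3 ZGW serum libraries lay far below every control library, and high glucose alone gave 104, 54.3 and 50.7 CPM. The log2 fold change of Psmc6 was -2.06 ± 0.34 (SE). Eif2s1 encodes the alpha subunit of initiation factor eIF2, whose phosphorylation limits protein synthesis under stress. It was at 154, 124 and 130 CPM in control and 53.9, 52.2 and 59.4 CPM with ZGW serum, for a log2 fold change of -1.30 ± 0.24 (SE). Its 3 ZGW serum values lay close together and well under the control values, while high glucose alone gave 108, 107 and 93.6 CPM.

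Ythdf2, a reader of methylated adenosine that sends maternal messages to decay, was at 602, 628 and 383 CPM in control and 202, 174 and 74.5 CPM with ZGW serum. The groups did not overlap, and ZGW serum replicate 3 was the lowest of the 6. Its log2 fold change was -1.84 ± 0.36 (SE). Prpf38a, a splicing factor, had a log2 fold change of -1.53 ± 0.29 (SE), from 138 ± 27.6 CPM in control and 48.0 ± 11.93 CPM with ZGW serum (SD, n = 3). The surface glycoprotein gene Cd24a stood at 207, 56.7 and 116 CPM in control and 18.6, 22.8 and 25.1 CPM with ZGW serum, where control replicate 1 was the highest. The actin-binding Tagln2 had a log2 fold change of -2.76 ± 0.52 (SE), the RNA-binding Celf4 of -2.31 ± 0.42 (SE), the adaptor Tank of -1.58 ± 0.30 (SE) and the haem-binding membrane protein gene Pgrmc1 of -1.52 ± 0.30 (SE). Rpl13, a protein of the large ribosomal subunit, had 222, 284 and 163 CPM in control and 51.0, 48.0 and 54.3 CPM with ZGW serum and a log2 fold change of -2.13 ± 0.30 (SE). The value of Rpl13 is uncertain, since 28.7% of its transcript stretches occur in other genes and the small nucleolar RNA gene Snord68 lies within it. The 12th gene, Usp17le, is described with the 2-cell genes.

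On the higher side the 12 genes of lowest p-value had adjusted p-values from 0.338 to 0.384 by edgeR's quasi-likelihood test (Benjamini-Hochberg). The mean of 10 CPM could be met in either group, and of the 12 only Gltp, Prr14l and Sec11a met it in control. Sec11a, the catalytic subunit of the signal peptidase that trims secreted proteins in the endoplasmic reticulum, was the most abundant in control, at 453, 431 and 581 CPM in control and 824, 939 and 1032 CPM with ZGW serum. The ZGW serum libraries lay above every control library and above high glucose alone, which gave 399, 539 and 509 CPM. Its log2 fold change was 0.93 ± 0.23 (SE), and exons of Nmb and of predicted genes lie within the gene. Tsnax, whose protein binds translin to cut RNA, had 0.876, 2.61 and 2.63 CPM in control and 16.02, 19.8 and 18.9 CPM with ZGW serum. Its low level set control apart from both glucose-loaded groups, with 17.7, 15.9 and 29.4 CPM under high glucose alone. The log2 fold change of Tsnax between ZGW serum and control was 3.16 ± 0.60 (SE).

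Ptdss1, which makes phosphatidylserine, was at 7.74, 3.73 and 12.1 CPM in control and 28.2, 41.9 and 28.7 CPM with ZGW serum. Gltp, a carrier of glycolipids, was at 14.4, 21.7 and 27.0 CPM in control and 45.7, 58.0 and 60.5 CPM with ZGW serum. In both, the highest control library stayed below the lowest ZGW serum library. Tram2, a protein of the translocation site of the endoplasmic reticulum, had a log2 fold change of 2.65 ± 0.64 (SE), Prr14l of 0.98 ± 0.26 (SE) and Cypt12 of 3.34 ± 0.69 (SE). Incenp, which targets the Aurora B kinase to chromosomes, was at 3.87, 3.50 and 3.87 CPM in control and 8.68, 15.7 and 36.5 CPM with ZGW serum. Control was tight and ZGW serum replicate 3 stood highest. Chac2, a glutathione-degrading enzyme, had 0.730, 0.0746 and 0.658 CPM in control and 5.68, 3.30 and 29.8 CPM with ZGW serum, and the log2 fold change of 4.70 ± 1.09 (SE) rests on a near absence in control. Trim12a, Trim12c and Trim30b, tripartite-motif genes, carried similar counts. They lie on chromosome 7 between 104299894 and 104369884 (GRCm38). Of their stretches of 50 bases, 4.46%, 32.7% and 0.991% occur in other genes, and whether the 3 share reads was not tested. In ZGW serum replicate 2 they stood at 22.4 CPM for Trim12a, 27.3 CPM for Trim12c and 19.7 CPM for Trim30b. Trim12a was at 2.04, 1.86 and 1.46 CPM in control and 7.34, 22.4 and 12.4 CPM with ZGW serum, for a log2 fold change of 2.97 ± 0.75 (SE). Under high glucose alone Trim12a had 1.44, 4.003 and 2.53 CPM, each below every ZGW serum library.

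**Figure D2:**
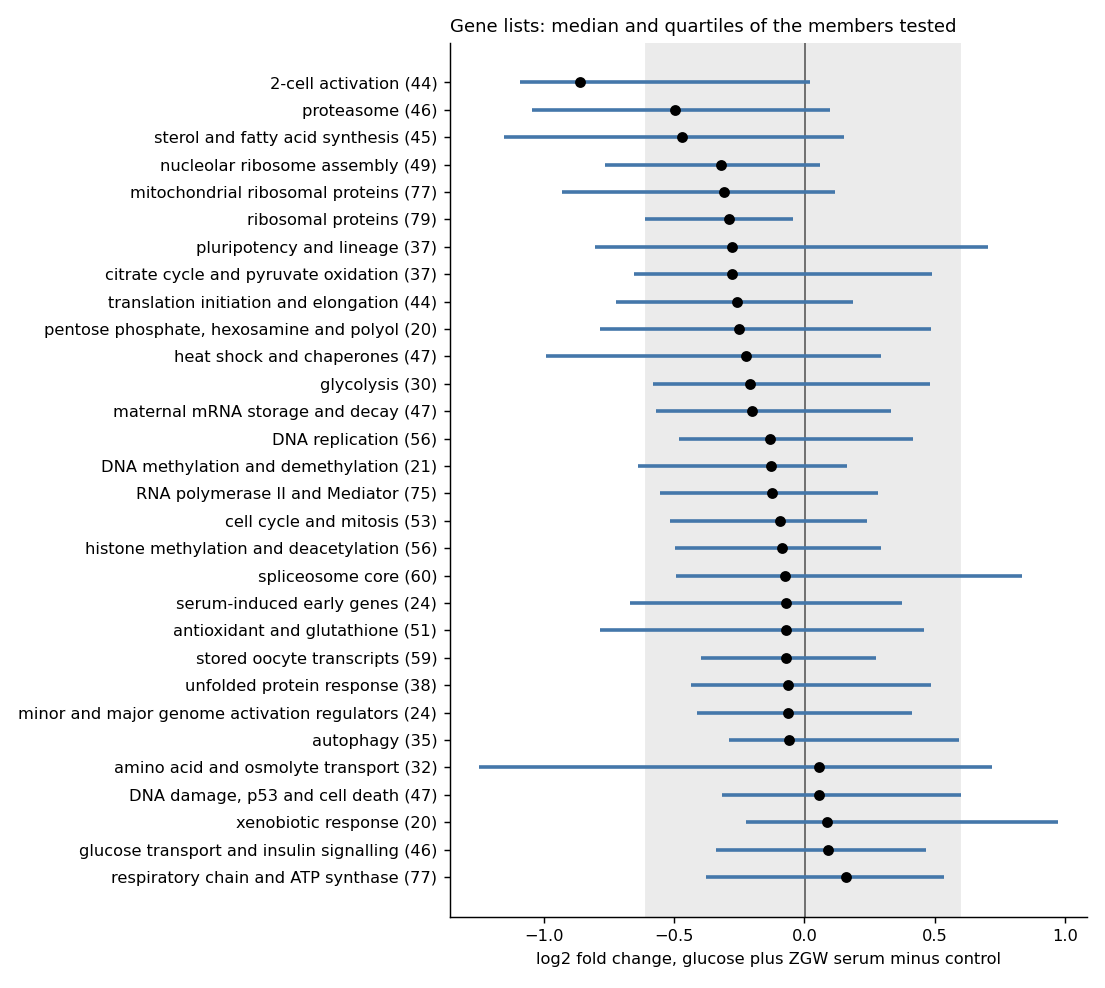
Median (point) and quartiles (line) of the log2 fold change, ZGW serum minus control, for the tested members of 30 gene lists, with the number of members in parentheses. The grey band and line are the quartiles and the median of all 16964 genes. The 2-cell activation list has the lowest median, -0.86, and the respiratory chain list the highest, 0.16.

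The list of 2-cell activation genes had the lowest median of the 30 functional lists. Of 44 members tested, 32 were lower and 12 higher with ZGW serum, with a median log2 fold change of -0.86 beside 0.001 for all genes. In 12 members (27.3%) all ZGW serum libraries lay below all controls, beside 7.3% of all genes, and in 0 members above. By share of counts the list overlapped between groups, at 1.63% to 2.83% in control and 1.05% to 1.86% with ZGW serum. ZGW serum replicate 3 was the lowest and control replicate 3 the highest. The median was -0.53 without control replicate 3, -0.51 without ZGW serum replicate 3 and -0.50 without control replicate 1 and ZGW serum replicate 3, where 35 of 44 members were lower. The members are largely multi-copy genes: of 43 with a transcript in the annotation, 29 shared over 10% of their stretches of 50 bases with other genes, and the others with a value had a median of -0.54.

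The Usp17l genes, deubiquitinases that remove ubiquitin from proteins, show how close such copies can be in places. Below are 60 bases of the coding sequence of 3 of them on chromosome 7 (GRCm38 genome and GENCODE annotation), from 103418499 to 103418558 on the plus strand for Usp17lc, from 103250665 to 103250724 on the minus strand for Usp17ld and from 104768773 to 104768832 on the minus strand for Usp17le. The stretch was picked as the most alike of those in which Usp17ld and Usp17le each differed from Usp17lc. Capitals mark the positions at which the 3 differ.
Usp17lc: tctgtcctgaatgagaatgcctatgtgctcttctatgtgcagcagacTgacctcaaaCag
Usp17ld: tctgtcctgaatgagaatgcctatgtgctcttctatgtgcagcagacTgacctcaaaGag
Usp17le: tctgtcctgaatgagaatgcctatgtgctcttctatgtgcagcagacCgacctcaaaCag
Over this stretch Usp17ld and Usp17le each differed from Usp17lc at 1 base. Over the whole coding sequence Usp17ld was 98.4% identical to Usp17lc and Usp17le 82%. A read from this stretch cannot be placed by most of its bases, and how such reads were counted is not stated in the labels. Of all their 50-base stretches, 44.7% of Usp17lc, 51.1% of Usp17ld and 30.8% of Usp17le occurred in other genes.

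All 5 Usp17l genes tested were lower, 4 of them without overlap between the groups, and 4 of 5 were lower without control replicate 1 and ZGW serum replicate 3. Usp17le, the most divergent of the 3 shown, had 30.0, 29.2 and 24.1 CPM in control and 5.604, 2.66 and 1.87 CPM with ZGW serum, with a log2 fold change of -3.04 ± 0.57 (SE). No ZGW serum library came near a control library, and high glucose alone gave 40.8, 15.01 and 30.1 CPM. Usp17ld was at 24.96, 30.0 and 24.6 CPM in control and 13.0, 4.04 and 6.67 CPM with ZGW serum. Usp17lc was at 26.9, 33.4 and 28.4 CPM in control and 15.9, 16.3 and 15.7 CPM with ZGW serum. High glucose alone stood higher than control in the mean for both, with 93.3, 37.1 and 67.5 CPM for Usp17lc. Usp17lb had a log2 fold change of -1.46 ± 0.57 (SE), and Usp17la, at -0.08 on the same scale, overlapped between the groups.

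The 5 Zscan4 genes, whose proteins act at telomeres and mark the transient 2-cell state, were lower in the mean but overlapped. Zscan4c was at 1500, 1095 and 3308 CPM in control and 1396, 947 and 473 CPM with ZGW serum. Control replicate 3 held the high value, and without it the median of the 5 genes was -0.50 in place of -1.02. The 5 Tdpoz genes had a median of -0.94, or -0.51 without control replicate 1 and ZGW serum replicate 3. Tdpoz4 alone among them did not overlap, at 41.5, 39.4 and 37.6 CPM in control and 21.0, 24.7 and 15.1 CPM with ZGW serum. Dppa4, which with Dppa2 opens chromatin ahead of genome activation, was at 46.7, 111 and 91.8 CPM in control and 34.8, 25.6 and 4.98 CPM with ZGW serum, for a log2 fold change of -1.93 ± 0.59 (SE). Every ZGW serum value of Dppa4 lay below the lowest control value, and ZGW serum replicate 3 was far below the rest. Dppa2 had a log2 fold change of -0.92 ± 0.43 (SE) and overlapped.

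Outside these families, Zfp352 had 182, 159.5 and 226 CPM in control and 74.8, 110.5 and 33.3 CPM with ZGW serum. Ubtfl1, a relative of a ribosomal DNA transcription factor, was at 128, 95.0 and 103 CPM in control and 45.1, 56.1 and 40.7 CPM with ZGW serum. Neither overlapped, with log2 fold changes of -1.37 ± 0.43 (SE) and -1.20 ± 0.36 (SE). Duxbl1, a double homeobox gene, did not overlap either, with a log2 fold change of -1.15 ± 0.36 (SE), but 97.2% of its stretches occur elsewhere. Eif1a, a gene for a factor that helps the ribosome find the start codon, was 1 more without overlap. Among the oocyte-type homeobox genes, Obox6 did not overlap, at 91.4, 245 and 189.6 CPM in control and 78.1, 52.97 and 13.1 CPM with ZGW serum, and the other 4 did. The 5 Obox genes had a median of -0.03, and of -0.45 with 0 of 5 higher without control replicate 1 and ZGW serum replicate 3. Dux, the factor that switches many of these genes on, was at 10.9, 33.0 and 14.1 CPM in control and 26.4, 24.04 and 42.9 CPM with ZGW serum, and the groups overlapped. Tcstv1 and Tcstv3 had log2 fold changes of 0.41 and 0.29, and both overlapped.

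**Figure D3:**
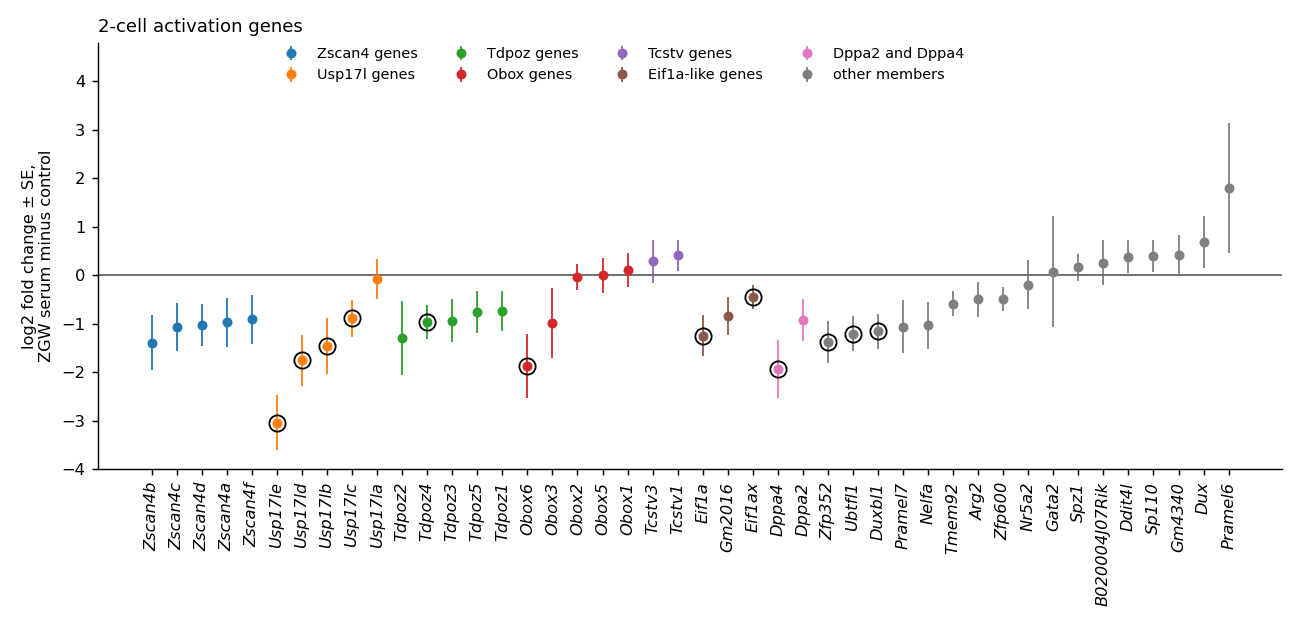
Log2 fold change, ZGW serum minus control, with its standard error, for the 44 tested genes of the 2-cell activation list, coloured by family. Ringed genes are those whose groups did not overlap. The ringed genes all lie below 0, from -3.04 for Usp17le to -0.45 for Eif1ax.

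Stored oocyte transcripts did not share a direction. Together they held 12.9% to 15.6% of counts in control and 15.9% to 19.4% with ZGW serum, wholly higher. Omt2a and Omt2b, described below, were the most counted members and themselves stood wholly higher. The share without these 2 genes is not given, so the list's share does not speak for its other members. Of 59 tested, 26 were higher and 33 lower. Without overlap 5 lay each way (8.47%), beside 9.02% of all genes above control and 7.3% below. The median was -0.07 and ran from -0.32 to 0.07 over the alternatives. Without control replicate 1 and ZGW serum replicate 3, 17 were higher and 42 lower. Lhx8, a homeobox factor of the young oocyte, was at 20.5, 37.1 and 25.4 CPM in control and 44.9, 68.3 and 66.1 CPM with ZGW serum. Zbed3, a protein of the subcortical maternal complex, was at 2922, 4596 and 4891 CPM in control and 5604, 7547 and 10270 CPM with ZGW serum. In both, ZGW serum lay above every control library, with log2 fold changes of 1.11 ± 0.38 (SE) and 0.92 ± 0.32 (SE). Oog3, of the leucine-rich oocyte gene family Oog, went the other way, at 11210, 17080 and 11540 CPM in control and 9999, 2874 and 3761 CPM with ZGW serum. ZGW serum replicates 2 and 3 were far below control, and replicate 1 lay just under the lowest control library.

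The oocyte transcripts Omt2a and Omt2b, the most counted genes in these libraries, stood higher without overlap. Omt2b had 29400, 33640 and 33440 CPM in control and 40760, 44400 and 53310 CPM with ZGW serum, for a log2 fold change of 0.52 ± 0.23 (SE), and Omt2a of 0.56 ± 0.23 (SE). Under high glucose alone every library had less Omt2b than any library of the other groups, at 16950, 24230 and 27260 CPM. These genes share part of their sequence, with 29.5% of the stretches of Omt2a found elsewhere. Zp3 of the zona pellucida, the growth factor gene Gdf9 and Nlrp5 of the subcortical complex overlapped. Zp3 had a log2 fold change of -0.44 ± 0.49 (SE), Gdf9 of -0.07 ± 0.31 (SE) and Nlrp5 of 0.06 ± 0.40 (SE). The 9 Nlrp genes had a median of 0.14, which turned to -0.35 without control replicate 1 and ZGW serum replicate 3.

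Among the factors that store and degrade maternal messages, 29 of 47 were lower and 18 higher, with a median of -0.20. Without overlap 5 lay each way (10.6%), beside 9.02% of all genes above control and 7.3% below. Beside Paip1, the lower members without overlap included Upf1, the helicase of nonsense-mediated decay, at 85.7, 96.9 and 30.0 CPM in control and 25.3, 10.1 and 10.7 CPM with ZGW serum. ZGW serum replicate 1 and control replicate 3 lay next to each other, and exons of Cers1 and Gdf1 lie within the gene, so that its count may hold theirs. Zfp36l2, which binds AU-rich elements and starts decay, was at 82.5, 66.9 and 59.7 CPM in control and 34.9, 17.6 and 27.0 CPM with ZGW serum. The cap-binding protein gene Eif4e was at 923, 757 and 849 CPM in control and 581, 358 and 573 CPM with ZGW serum, with no overlap and a log2 fold change of -0.74 ± 0.27 (SE). On the higher side were Paip2b, which displaces the poly(A)-binding protein and represses translation, at 103, 65.8 and 106 CPM in control and 123, 182 and 170.5 CPM with ZGW serum. Papd4, a cytoplasmic poly(A) polymerase, was at 216, 189 and 303 CPM in control and 409, 310 and 399 CPM with ZGW serum. Paip1 and Paip2b, which act in opposite ways on the same protein, thus stood at log2 fold changes of -2.59 and 0.79. The poly(A)-binding protein gene Pabpc1 overlapped, with a log2 fold change of -0.95 ± 0.45 (SE). The deadenylase subunits Cnot7 and Cnot6l overlapped, with log2 fold changes of -0.26 and 0.67.

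Cytoplasmic ribosomal protein genes were mostly a little lower. Of 79 tested, 64 were lower, 14 of them without overlap (17.7%, beside 7.3% of all genes), and 15 higher, 0 without overlap. The median log2 fold change was -0.29, and -0.06 without control replicate 2, in which these genes stood high. Their share of counts was 1.71% to 2.72% in control and 1.54% to 2.58% with ZGW serum, so the groups overlapped. The median was -0.31 over 47 genes of the large subunit and -0.29 over 32 of the small subunit. Without control replicate 2 these were -0.15 and 0.06, and without ZGW serum replicate 2 the small subunit was at -0.60. Rplp0 of the ribosomal stalk was at 746, 711 and 449 CPM in control and 415, 377 and 303 CPM with ZGW serum, for a log2 fold change of -0.80 ± 0.26 (SE). Rpl7 had 93.4, 218 and 54.9 CPM in control and 35.3, 18.1 and 25.9 CPM with ZGW serum, with control replicate 2 highest and ZGW serum replicate 1 next to control replicate 3. Rpl6 was at -1.40 ± 0.34 (SE), Rps3 at -1.53 ± 0.48 (SE) and Rps10 at -1.06 ± 0.38 (SE) on the log2 scale. In 67 of the 79 genes over 10% of stretches occur elsewhere, and the others had a median of -0.24.

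Mitochondrial ribosomal proteins, which serve translation inside mitochondria, were lower in 52 of 77, 14 without overlap (18.2%). Another 25 were higher, 3 without overlap (3.9%), beside 7.3% of all genes below control and 9.02% above. The median was -0.31, with -0.16 without control replicate 1 and -0.56 without ZGW serum replicate 1. Mrpl40 was at 389, 254 and 202 CPM in control and 155, 148 and 117 CPM with ZGW serum. Mrpl4 was at 61.1, 49.8 and 64.0 CPM in control and 26.4, 25.5 and 21.4 CPM with ZGW serum. Both lay wholly below control. Mrps21 lay wholly above it, at 85.0, 89.8 and 80.2 CPM in control and 141, 123 and 248 CPM with ZGW serum. By share of counts this list overlapped between the groups.

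Nucleolar factors that assemble ribosomes were lower in 35 of 49, 9 without overlap (18.4%, beside 7.3% of all genes). Another 14 were higher, 1 without overlap (2.04%, beside 9.02%). The median was -0.32 and lay between -0.63 and -0.28 over the alternatives. Emg1, which methylates the small subunit RNA, had 48.9, 107 and 69.6 CPM in control and 22.8, 23.99 and 24.3 CPM with ZGW serum. The 3 ZGW serum values were nearly equal and lay well below the lowest control value. Imp4, of the small subunit processome, had a log2 fold change of -1.30 ± 0.35 (SE), Gnl3 of -1.06 ± 0.39 (SE) and Nop56 of -0.64 ± 0.29 (SE).

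Initiation and elongation factors were lower in 31 of 44. Without overlap 8 were lower (18.2%) and 2 higher (4.55%), beside 7.3% and 9.02% of all genes. The median was -0.26 and lay between -0.35 and -0.16 over the alternatives. Of the 8 genes for eIF2 and its exchange factor eIF2B, 7 were lower. Eif2s2, the beta subunit, was at 721, 932 and 712 CPM in control and 689, 475 and 509.7 CPM with ZGW serum, just without overlap. The 13 subunits of eIF3, the scaffold of the initiating ribosome, were split 6 to 7, with Eif3h at a log2 fold change of -0.99 ± 0.32 (SE). The elongation factor subunit gene Eef1g was scarce, at 6.06, 9.77 and 16.2 CPM in control and 2.60, 1.92 and 0.267 CPM with ZGW serum. Of its transcript stretches of 50 bases, 64.3% occur in other genes.

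Spliceosomal genes split by part. The list had 27 of 60 higher, 10 without overlap (16.7%), and 33 lower, 8 without overlap (13.3%). Over all genes these shares were 9.02% and 7.3%. The median was -0.07 and lay between -0.14 and 0.05 over the alternatives. Sm and LSm proteins form the rings around the small nuclear RNAs, and 12 of their 17 genes were higher, with a median of 0.81. Snrpg stood at 1943, 1912 and 1472 CPM in control and 2258, 2837 and 4240 CPM with ZGW serum. Snrpf was at 42.2, 50.8 and 51.1 CPM in control and 53.2, 97.1 and 147 CPM with ZGW serum. ZGW serum replicate 3 was the highest library for both. Snrpg had a log2 fold change of 0.81 ± 0.26 (SE) and Lsm7 of 0.95 ± 0.39 (SE). Without control replicate 1 and ZGW serum replicate 3 the ring genes had a median of 0.14, with 10 of 17 higher, so the split was much smaller without those libraries. On the lower side Snrpc, a protein of the U1 particle, was at 56.0, 63.7 and 54.2 CPM in control and 22.8, 17.2 and 13.2 CPM with ZGW serum. Snrpa of the same particle was at 35.03, 37.3 and 25.4 CPM in control and 5.37, 15 and 7.74 CPM with ZGW serum. These lay wholly below control, with log2 fold changes of -1.71 ± 0.36 (SE) and -1.79 ± 0.56 (SE).

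RNA polymerase II, its general factors and Mediator had 45 of 75 lower and 30 higher, with a median of -0.12, between -0.18 and -0.03 over the alternatives. Gtf2f1, of factor TFIIF, was at 46.8, 38.2 and 36.1 CPM in control and 21.1, 20.3 and 11.8 CPM with ZGW serum. Polr2c, a polymerase subunit, was at 711, 706 and 611 CPM in control and 402, 398 and 524 CPM with ZGW serum. Both lay below control without overlap. Med15, of the Mediator tail, lay above it, at 43.9, 43.5 and 60.8 CPM in control and 66.3, 117 and 171 CPM with ZGW serum.

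**Figure D4:**
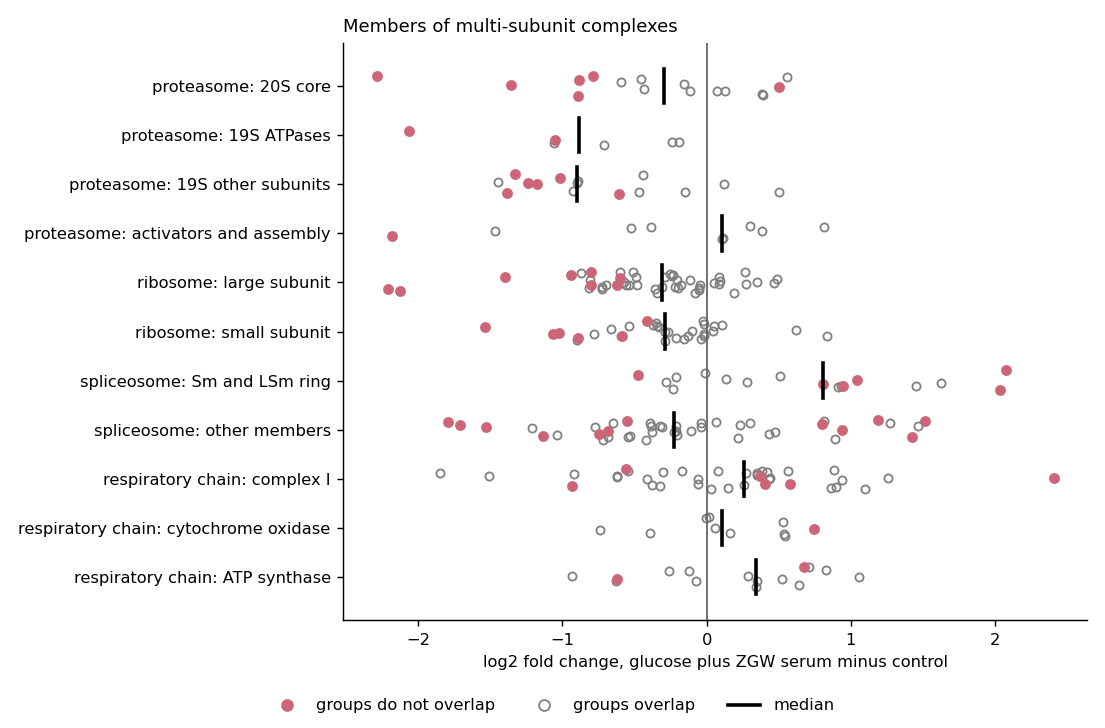
Log2 fold change, ZGW serum minus control, of each tested gene in the parts of 4 multi-subunit complexes, 1 point per gene. Filled points are genes whose groups did not overlap and bars are medians. The bars of the 19S proteasome parts lie at -0.88 and -0.90 and that of the Sm and LSm ring at 0.81.

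Proteasome genes were lower in 33 of 46, with 14 below control without overlap (30.4%, beside 7.3% of all genes) and 1 above (2.17%). The proteasome degrades ubiquitin-tagged proteins in its 20S core, which the 19S cap opens and feeds. The median log2 fold change of the list was -0.50. All 6 ATPases of the cap and 13 of its 15 other subunits were lower, with medians of -0.88 and -0.90. The 16 genes of the 20S core had a median of -0.29, and activators and assembly factors of 0.11. The core median was -0.15 without control replicate 1 and ZGW serum replicate 3 and -0.58 without ZGW serum replicate 2, and that of activators and assembly factors -0.30 without ZGW serum replicate 3. The difference between the parts was not tested. Of the cap, Psmd5 was at 34.7, 42.6 and 33.6 CPM in control and 16.1, 13.9 and 12.4 CPM with ZGW serum. Psmd4, a ubiquitin receptor, was at 194, 168 and 129 CPM in control and 96.2, 32.5 and 80.0 CPM with ZGW serum. Their ZGW serum values lay wholly below control. Psmd8 had a log2 fold change of -1.33 ± 0.41 (SE) and the deubiquitinase subunit Psmd14 of -1.18 ± 0.54 (SE). Without control replicate 1 the median of the 6 ATPases was -0.46, and the whole list lay between -0.67 and -0.37 over the alternatives. By share of counts the list overlapped, at 0.27% to 0.294% in control and 0.26% to 0.287% with ZGW serum.

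Heat shock proteins and chaperones were lower in 29 of 47, 9 without overlap (19.1%), and higher in 18, 4 without overlap (8.51%). Over all genes 7.3% lay below control and 9.02% above. The median was -0.23. Stip1, which hands clients from Hsp70 to Hsp90, had 109.8, 117 and 103 CPM in control and 49.3, 58.2 and 46.1 CPM with ZGW serum. ZGW serum was about even across libraries and lay wholly under control and under high glucose alone, at 139.8, 114 and 111 CPM. Its log2 fold change was -1.10 ± 0.25 (SE). Dnajb1 and Dnaja1, Hsp40 partners of Hsp70, had log2 fold changes of -1.06 ± 0.30 (SE) and -0.75 ± 0.26 (SE), without overlap. The CCT ring, which folds actin and tubulin, had 7 of 8 genes lower, with Cct5 at 93.3, 76.6 and 87.1 CPM in control and 48.0, 24.4 and 36.5 CPM with ZGW serum. The inducible Hsp70 genes Hspa1a and Hspa1b lay above control, Hspa1a only just, with log2 fold changes of 1.59 ± 0.69 (SE) and 1.36 ± 0.58 (SE). These are near-identical copies whose counts may be shared, with 60.3% and 62.3% of stretches found elsewhere.

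Genes of the unfolded protein response were split 18 to 20. Manf, a secreted factor induced by stress in the endoplasmic reticulum, was at 172, 167 and 176 CPM in control and 74.3, 131 and 52.2 CPM with ZGW serum, wholly below control. Exons of Dcaf1 and Rbm15b lie within Manf, so that its count may hold theirs. Eif2ak4, the kinase that senses amino acid lack, was at 19.99, 31.8 and 58.2 CPM in control and 65.5, 69.8 and 123 CPM with ZGW serum, wholly above control. Hspa5, Atf4 and Ddit3, the usual markers of the response, overlapped, with log2 fold changes of -0.26, -0.32 and -0.10. Autophagy genes were split 16 higher to 19 lower of 35. Without overlap 3 lay above control (8.57%) and 1 below (2.86%), beside 9.02% and 7.3% of all genes. Atg4b, of the 3, was at 4.16, 0.671 and 2.63 CPM in control and 7.58, 7.82 and 8.89 CPM with ZGW serum. Gabarap, the 1 below, was at 52.8, 138 and 49.8 CPM in control and 41.8, 7.02 and 38.9 CPM with ZGW serum.

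Of the lists nearest to glucose, none had a clear direction. Glucose transport and insulin signalling genes had 26 of 46 higher, 4 without overlap (8.7%, beside 9.02% of all genes), and 20 lower, 0 without overlap. The median was 0.09, -0.06 without control replicate 3 and 0.30 without control replicate 2. Slc2a1 and Slc2a3, which encode the transporters Glut1 and Glut3, overlapped. Slc2a1 was at 30.6, 57.8 and 9.72 CPM in control and 12.9, 12.2 and 30.1 CPM with ZGW serum, and Slc2a3 had a log2 fold change of -0.82 ± 0.74 (SE). Pik3cd, a catalytic subunit of phosphoinositide 3-kinase, was at 31.4, 22.6 and 40.6 CPM in control and 44.8, 62.8 and 109.8 CPM with ZGW serum, with ZGW serum replicate 3 highest. The insulin receptor gene Insr was scarce, at 0.219, 1.12 and 1.90 CPM in control and 1.81, 7.66 and 7.38 CPM with ZGW serum.

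Glycolytic genes were split 13 to 17, with a median of -0.21, 0.12 without control replicate 1, 0.07 without control replicate 2 and -0.48 without control replicate 3. Hk2, the hexokinase that traps glucose in the cell, had 16.93, 3.65 and 5.55 CPM in control and 1.34, 1.22 and 0.356 CPM with ZGW serum and a log2 fold change of -3.14 ± 0.84 (SE). Every ZGW serum library was below every control library, and high glucose alone gave 15.2, 9.39 and 11.0 CPM. Aldoc lay the other way, at 29.6, 32.5 and 38.1 CPM in control and 72.0, 102 and 56.2 CPM with ZGW serum, while Aldoa overlapped, with a log2 fold change of -0.77. The pentose phosphate, hexosamine and polyol genes had 13 of 20 lower, 0 of them without overlap. The 1 gene wholly above control was Sord (5%, beside 9.02% of all genes).

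Respiratory chain and ATP synthase genes had the highest median of the 30 functional lists, 0.16, with 46 of 77 higher. The 7 that lay above control without overlap (9.09%) were at the background of 9.02%, and the median was 0.03 without control replicate 3. Cox7a2 of cytochrome oxidase was at 439, 567 and 358 CPM in control and 632, 667 and 993 CPM with ZGW serum. Ndufa4 was at 301, 305 and 262 CPM in control and 386, 402 and 508 CPM with ZGW serum. High glucose alone stood below every control library for both, with 238, 274 and 302 CPM for Cox7a2. The log2 fold change was 0.99 ± 0.40 (SE) for Uqcrh of complex III and 0.68 ± 0.28 (SE) for Atp5b of the ATP synthase. Ndufa10, of complex I, lay below control, at 58.5, 84.8 and 73.2 CPM in control and 54.1, 22.7 and 36.5 CPM with ZGW serum.

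Citrate cycle and pyruvate oxidation genes had a median of -0.28, between -0.39 and 0.01 over the alternatives, the latter without control replicate 3. Mdh2, the mitochondrial malate dehydrogenase, was at 96.2, 99.4 and 71.4 CPM in control and 51.6, 46.3 and 24.4 CPM with ZGW serum. Sucla2, of succinyl-CoA synthetase, was at 68.6, 81.8 and 67.1 CPM in control and 50.8, 17.9 and 26.8 CPM with ZGW serum. Both lay below control without overlap. Pdha1, of pyruvate dehydrogenase, lay above it, at 24.7, 16.7 and 16.8 CPM in control and 31.6, 40.1 and 39.5 CPM with ZGW serum, and Mpc1, of the pyruvate carrier, overlapped, with a log2 fold change of -0.50.

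Sterol and fatty acid genes were lower in 33 of 45, with 10 below control without overlap (22.2%, beside 7.3% of all genes) and 0 above. The median was -0.47 and lay between -0.71 and -0.38 over the alternatives. Together the list held 0.12% to 0.132% of counts in control and 0.0809% to 0.094% with ZGW serum, which did not overlap. No test was run on this share. Scd1, the desaturase that makes oleate, was at 30.6, 30.5 and 90.6 CPM in control and 8.13, 6.12 and 4.18 CPM with ZGW serum, for a log2 fold change of -3.04 ± 0.66 (SE). Control replicate 3 held the highest value, and the lowest control was still well above every ZGW serum library. High glucose alone gave 8.85, 34.8 and 14.3 CPM for Scd1.

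Fdft1, which makes squalene, was at 155, 186 and 132 CPM in control and 89.4, 75.4 and 77.8 CPM with ZGW serum. Exons of Ctsb lie within Fdft1, so that its count may hold theirs. Insig1, the sterol-sensing brake on lipid synthesis, was at 146, 158 and 92.7 CPM in control and 68.3, 51.2 and 67.8 CPM with ZGW serum. All 3 ZGW serum libraries lay below control, with log2 fold changes of -0.96 ± 0.24 (SE) and -1.08 ± 0.29 (SE). For Fdft1 high glucose alone stayed nearer to control, at 126, 138 and 126 CPM, while for Insig1 it gave 74.3, 76.4 and 68.8 CPM. Elovl6, which lengthens fatty acids, had a log2 fold change of -1.71 ± 0.51 (SE), and the cholesterol pathway genes Sc5d, Ebp and Fdps of -1.56 ± 0.50 (SE), -2.52 ± 0.69 (SE) and -1.35 ± 0.64 (SE). Hmgcs1 and Sqle, of the same pathway, overlapped, with log2 fold changes of -0.42 and -0.42. The regulators Srebf1 and Srebf2 were scarce, with Srebf2 at 3.72, 0.746 and 1.32 CPM in control and 2.60, 1.54 and 2.58 CPM with ZGW serum.

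**Figure D5:**
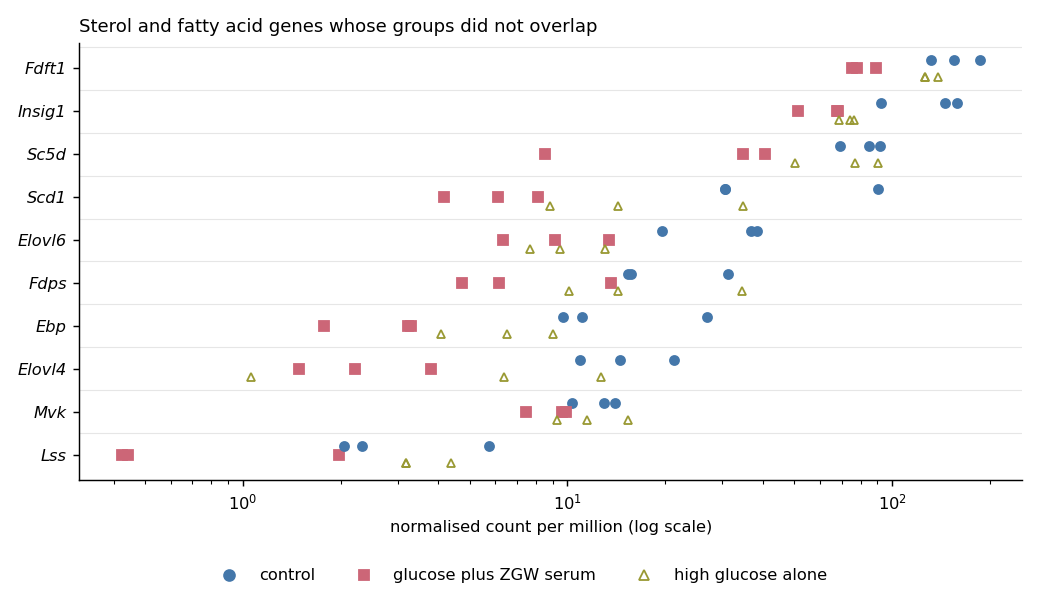
Normalised counts (CPM, log scale) of the 10 sterol and fatty acid genes whose control and ZGW serum libraries did not overlap, 1 point per library. Circles are control, squares ZGW serum and triangles high glucose alone. Fdft1 lies between 132 and 186 CPM in control and between 75.4 and 89.4 CPM with ZGW serum.

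Antioxidant and glutathione genes were split 25 to 26, with a median of -0.07. Without overlap 6 lay below control (11.8%) and 5 above (9.8%), beside 7.3% and 9.02% of all genes. The 5 above were Chac1, Chac2, Gsta1, Srxn1 and Txnrd2. Among those below, Sod1, the cytosolic superoxide dismutase, was at 241, 272 and 128 CPM in control and 94.2, 48.8 and 93.2 CPM with ZGW serum. Gpx4, which reduces lipid peroxides, was at 169, 176 and 104 CPM in control and 71.8, 57.3 and 62.7 CPM with ZGW serum. The value of Gpx4 is uncertain, since 61.7% of its transcript stretches of 50 bases occur in other genes. Prdx6 was at 106, 159.8 and 182 CPM in control and 60.8, 68.2 and 74.4 CPM with ZGW serum. The groups did not overlap in these 3, with log2 fold changes of -1.44 ± 0.39 (SE), -1.23 ± 0.32 (SE) and -1.14 ± 0.32 (SE). Gpx1 had -1.28 ± 0.37 (SE) on the log2 scale. Nfe2l2, the factor that induces such genes, overlapped, with a log2 fold change of -0.62 ± 0.45 (SE).

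Cell cycle genes were split 25 to 28, with a median of -0.09 that turned to 0.10 without control replicate 2 and 0.08 without ZGW serum replicate 2. Without control replicate 1 and ZGW serum replicate 3 it was -0.27, with 17 higher and 36 lower. Fbxo5, which holds back the anaphase-promoting complex, was at 287, 175 and 294 CPM in control and 110.4, 89.1 and 95.0 CPM with ZGW serum, for a log2 fold change of -1.36 ± 0.28 (SE). The ZGW serum values were close together and lay wholly below control, and high glucose alone gave 316, 246 and 205 CPM. Cdk1, the mitotic kinase, was at 312, 271 and 186 CPM in control and 127, 171 and 118 CPM with ZGW serum. Ccne2, a cyclin of S phase entry, was at 308, 161 and 136 CPM in control and 106, 84.6 and 89.3 CPM with ZGW serum. Neither overlapped. Pttg1, or securin, lay above control, at 2048, 2652 and 2769 CPM in control and 2980, 3090 and 6415 CPM with ZGW serum, while the cyclins Ccnb1 and Ccna2 overlapped, with log2 fold changes of -0.07 and 0.14.

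DNA replication genes had a median of -0.13, between -0.29 and 0.04 over the alternatives, the latter without control replicate 2. Mcm10, which helps to start the replication fork, was at 3.58, 1.94 and 2.05 CPM in control and 6.31, 8.30 and 12.7 CPM with ZGW serum. Control lay below both glucose-loaded groups, with 13.9, 12.8 and 21.4 CPM under high glucose alone. The 6 subunits of the MCM2-7 helicase all overlapped. Of the p53 and cell death genes, 25 were higher and 22 lower. The p53 target Cdkn1a, which encodes the inhibitor p21, was at 29.8, 18.4 and 11.1 CPM in control and 6.55, 4.73 and 6.49 CPM with ZGW serum, wholly below control, and the gene of p53 itself, Trp53, overlapped, with a log2 fold change of 0.64 ± 0.49 (SE).

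Among histone-modifying enzymes, 24 were higher and 32 lower, with a median of -0.09 that lay between -0.22 and 0.05 over the alternatives. Without overlap 5 lay above control (8.93%) and 6 below (10.7%), beside 9.02% and 7.3% of all genes. Setdb2 was at 134, 97.1 and 79.4 CPM in control and 41.0, 59.3 and 40.4 CPM with ZGW serum. Kdm6b, a demethylase of lysine 27 on histone H3, was at 70.0, 92.0 and 33.3 CPM in control and 32.4, 25.8 and 26.6 CPM with ZGW serum. Both lay below control, Kdm6b only just. Kdm2b lay above it, at 23.5, 25.6 and 30.7 CPM in control and 35.5, 47.0 and 124 CPM with ZGW serum, with ZGW serum replicate 3 far above the rest. DNA methylation genes had 12 of 21 lower. Tet3, the maternal enzyme that oxidises 5-methylcytosine, was at 129, 219 and 179.6 CPM in control and 210.3, 258 and 351 CPM with ZGW serum. Zfp57, which guards imprints, was at 397, 478 and 434 CPM in control and 373, 111 and 334 CPM with ZGW serum. Tet3 overlapped, and Zfp57 did not, with ZGW serum replicate 2 lowest.

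Pluripotency and lineage genes had 16 of 37 higher, 6 without overlap (16.2%), and 21 lower, 7 without overlap (18.9%), against backgrounds of 9.02% and 7.3%. Sall4, a factor of the inner cell mass, was at 109, 192 and 144 CPM in control and 56.5, 67.5 and 82.8 CPM with ZGW serum. Krt18, a keratin of the trophectoderm, was at 28.5, 50.9 and 13.1 CPM in control and 5.68, 0.691 and 1.60 CPM with ZGW serum. Both lay wholly below control. Yap1, the effector of Hippo signalling, was at 179.7, 246 and 221 CPM in control and 269.9, 357 and 379 CPM with ZGW serum. Fgfr2 was at 16.5, 8.72 and 10.7 CPM in control and 38.2, 23.2 and 26.1 CPM with ZGW serum. Gata4, of the primitive endoderm, was at 5.33, 5.74 and 3.22 CPM in control and 14.1, 21.2 and 12.1 CPM with ZGW serum, with 19.6, 19.7 and 22.4 CPM under high glucose alone. These 3 lay wholly above control. Pou5f1, Sox2 and Nanog had log2 fold changes of -0.61 ± 0.58 (SE), -0.43 ± 0.64 (SE) and 0.55 ± 0.59 (SE), and of these Nanog did not overlap.

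Some genes were near absent in 1 group. At 5 CPM or more in every ZGW serum library and under 1 CPM in every control library were 4 genes, 5031414D18Rik, Pigo, Rab39b and Usp27x. Usp27x, a deubiquitinase gene, was at 0, 0.149 and 0.0731 CPM in control and 7.42, 5.85 and 5.78 CPM with ZGW serum. Rab39b, of the Rab trafficking GTPases, was at 0.0730, 0.746 and 0 CPM in control and 6.08, 8.19 and 5.33 CPM with ZGW serum. Pigo, which builds the lipid anchor of surface proteins, was at 0.365, 0.224 and 0.731 CPM in control and 9.08, 5.27 and 6.58 CPM with ZGW serum. The reverse held for 4 genes, Cdyl2, Hoxd10, Myb and Steap1. Hoxd10, a homeobox gene of the posterior body, was at 14.1, 23.1 and 11.0 CPM in control and 0, 0 and 0.356 CPM with ZGW serum. Cdyl2, a chromodomain protein gene, was at 6.35, 5.37 and 6.94 CPM in control and 0, 0.106 and 0 CPM with ZGW serum. Myb, a transcription factor of blood progenitors, had 12.2, 6.56 and 12.3 CPM in control and no count in the 3 ZGW serum libraries. Set against an assumed floor of 3 counts over these libraries, or 0.0702 CPM, its control mean was 148-fold higher. That ratio leaves out the spread between libraries and is no lower bound. The fitted log2 fold change of Myb was -10.1 ± 2.70 (SE). Under high glucose alone Myb had 0, 4.46 and 0 CPM and Steap1, at 10.8, 6.11 and 11.2 CPM in control and 0.0789, 0.691 and 0.356 CPM with ZGW serum, had 9.61, 3.85 and 4.49 CPM. None of the 8 passed edgeR's test.

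Most markers of other cells were scarce in both groups. Those over 10 CPM were the alpha globin genes, Epcam, Pecam1 and 1 cumulus marker, Kitl. The part of these cells in the results was not tested. Of 27 markers of cumulus and granulosa cells, which surround the oocyte, 11 had enough counts. Of these 8 were lower and 3 higher with ZGW serum. Without overlap 1 lay each way (9.09%), beside 9.02% of all genes above control and 7.3% below. The median was -1.21, or 0.06 with the filter of 10 counts in 6 libraries. The list held 0.00365% to 0.0068% of counts in control and 0.00329% to 0.00434% with ZGW serum. Igfbp5 was at 7.74, 1.57 and 2.78 CPM in control and 0.158, 0.106 and 0 CPM with ZGW serum, and Pgr had no count in any of the 6 libraries. Of 8 blood markers 6 were higher, 3 of them without overlap (37.5%, beside 9.02% of all genes), with a median of 0.51. Blood markers held 0.024% to 0.036% of counts in control and 0.0348% to 0.052% with ZGW serum, nearly all in the alpha globin genes Hba-a1 and Hba-a2, which have identical counts and stood at 146, 112 and 172 CPM in control and 151, 199.9 and 262 CPM with ZGW serum. ZGW serum replicates 2 and 3 held the highest values, and the groups overlapped. The beta globin genes had at most 4 counts in any library, and the pan-leukocyte marker Ptprc at most 1. Of 9 markers of stroma and epithelium 7 were lower, 1 without overlap (11.1%, beside 7.3% of all genes), with a median of -0.89. They held 0.00856% to 0.0171% and 0.00194% to 0.00887%, with Epcam, also an embryonic gene, at 58.3, 107 and 52.3 CPM in control and 14.3, 23.8 and 1.16 CPM with ZGW serum. Pecam1, an endothelial marker, was at 19.6, 35.9 and 22.1 CPM in control and 16.6, 20.5 and 14.2 CPM with ZGW serum. Col1a2 and Col3a1 had at most 1 count. Liver and serum protein genes were split 5 higher to 6 lower and held 0.00161% to 0.0038% and 0.00243% to 0.00266%, and none of them was over 10 CPM.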

How the data were processed

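RNA of pooled 2-cell embryos was sequenced, and the authors deposited unnormalised whole-number counts for each gene symbol. Reads were trimmed with Trim Galore and the build was mm10, per the submitters' processing notes. Aligner, counting tool, annotation and strand setting: not given in the sources used here. Groups came from the labels. Genes were tested with the quasi-likelihood method of edgeR 4.0.16 in R 4.3.3, with TMM factors, a minimum count of 10 by edgeR's filter and robust estimation. All 9 libraries entered the fit, with 1 mean for each group. P-values of the 16964 genes were adjusted by Benjamini-Hochberg, with a threshold of 0.05. Lists are described by counts and medians, without a test. The comparison, the lists and the rules were chosen with earlier results of these data known, and sub-families within lists after their values were seen.

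Genes were named by a rule: the 12 of lowest p-value each way with a mean of at least 10 CPM, leaving out predicted and clone names, in each list up to 3 members with the lowest p-values at 1 CPM or more, genes at 5 CPM or more in 1 group and under 1 CPM in the other, and the 10 most counted. Other members were named for their known role, after their values were seen. Positions and sequences were read from the GRCm38 genome (another name of mm10) with GENCODE transcripts. Shared sequence is the percent of a gene's stretches of 50 bases found in other genes' transcripts. Exons of other genes lie within more of the named genes than are marked, among them Sod1, Emg1, Ccne2, Sucla2, Ptdss1 and Atg4b. Whether their counts hold reads of those genes was not tested. Alternatives were RLE factors, DESeq2 1.42.0, limma-voom (limma 3.58.1), other filters, the 6 libraries alone, thinned counts, a replicate block, removal of the trend on transcript length and leaving out libraries. The method was tested on simulated data. Of 24454 genes 557 had no count, and 277 shared all counts with another gene in 116 profiles. Within groups, all libraries differed by more than sampling noise.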

Additional observations from a re-analysis of the deposited data

How the results depend on the processing

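The count of genes called between ZGW serum and control was 0 under edgeR's quasi-likelihood test, with RLE factors, with the 6 libraries alone, and in each fit that left out 1 library or control replicate 1 and ZGW serum replicate 3. It was 455 by DESeq2, and 1, Paip1, by limma-voom, with no filter on low counts, with the filter of 10 counts in 6 libraries and with thinned counts. Of the 455 DESeq2 calls edgeR tested 444. Among these 443 had an unadjusted p under 0.05 by edgeR, beside 4.21% of all genes higher and 5.65% lower. In 416 the groups did not overlap, beside 9.02% of all genes above control and 7.3% below. Both counts come from the same libraries as the calls, so they are no separate check of the 455. The number of genes at unadjusted p under 0.05 was 2631 by DESeq2. With the replicate number as a block the count of calls was also 0, and the adjusted p of Paip1 was 0.139. The labels' numbers do not pair the samples: the residuals of same-numbered libraries correlated at 0.0297, -0.00131 and -0.00369. Of the control libraries, only replicate 1 correlated best with its own number. Leaving out 1 library, the median log2 fold change lay between -0.96 and -0.51 for 2-cell activation, -0.71 and -0.38 for sterol and fatty acid genes, -0.67 and -0.37 for the proteasome and -0.06 and 0.30 for glucose transport. Without control replicate 1 and ZGW serum replicate 3 it was -0.50 for 2-cell activation and -0.43 for the proteasome. The proteasome median was -0.55 by DESeq2 and -0.44 with the trend on transcript length removed, and the sterol median -0.56 with thinned counts. The cause of these shifts was not tested. Of 35 list medians 19 had the other sign in at least 1 of 20 alternatives. Of 139 named genes 2, Dppa3 and Mphosph6, changed sign. Most of the 139 were named for a low p-value in these same libraries, so a stable sign is no separate check. The 2 that changed were named for their high counts. Dppa3, at 0 by limma-voom, lay between -0.32 (without ZGW serum replicate 3) and 0.49 with 1 library left out. Without control replicate 1 and ZGW serum replicate 3 it was at -0.46. Mphosph6 lay between -0.04 (without control replicate 1) and 0.43 with 1 library left out, and at -0.12 without those 2 libraries. Across 16752 genes, which are not independent, Spearman's rho of the log2 fold change was 0.03 with length and 0.10 with GC content. The biological coefficient of variation was 0.731.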

Other observations

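Genes that serum or foreign compounds commonly induce were mostly scarce in these embryos, and no direction was shared. Of 32 serum-induced early genes 24 had enough counts, 12 were higher and 12 lower with ZGW serum than in control, and 9 had a mean over 10 CPM. Egr1, an immediate early transcription factor, was at 26.8, 39.3 and 37.1 CPM in control and 25.5, 18.8 and 27.7 CPM with ZGW serum, and the groups overlapped. Dusp1, a phosphatase of MAP kinases, was at 13.9, 15.4 and 7.53 CPM in control and 18.4, 27.7 and 22.6 CPM with ZGW serum, wholly above control, and Klf10 at 105, 84.0 and 85.6 CPM in control and 74.1, 69.0 and 25.4 CPM with ZGW serum, wholly below it. Zfp36 ran from 3.51 to 99.8 CPM in control, with ZGW serum inside that range. Of the xenobiotic response genes, 11 of 20 were higher. Cyp1a1, a target of the aryl hydrocarbon receptor, had at most 0.638 CPM in the 6 libraries, and Ahr itself was at 0, 9.54 and 8.55 CPM in control and 13.8, 19.5 and 12 CPM with ZGW serum.

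Amino acid and osmolyte carriers were split 17 higher to 15 lower. Slc3a2, the heavy chain of several amino acid exchangers, was at 189, 204 and 135 CPM in control and 111, 53.4 and 102 CPM with ZGW serum, wholly below control, with a log2 fold change of -0.98 ± 0.31 (SE). Aqp9, a channel for water and glycerol, was at 4.09, 15.9 and 14.2 CPM in control and 34.6, 21.0 and 19.8 CPM with ZGW serum, wholly above control. Of the 10 most counted genes not yet described, BB287469 and Gm4027 had nearly the same counts in each library and cannot be told apart. BB287469 was at 13480, 8120 and 8996 CPM in control and 5797, 7817 and 3184 CPM with ZGW serum. Both genes lay wholly below control, with log2 fold changes of -0.865 and -0.855. They are Eif1a-like genes but were not in the 2-cell activation list, so its counts, median and share leave them out. Dppa3, a maternal factor that protects DNA methylation, was at 13730, 21700 and 15720 CPM in control and 16090, 10750 and 32870 CPM with ZGW serum, and the groups overlapped. Ubb and Spin1 overlapped too, with log2 fold changes of -0.39 ± 0.27 (SE) and -0.38 ± 0.25 (SE). Xist, the RNA that coats the inactive X chromosome, was at 1.31, 2.83 and 0.439 CPM in control and 5.92, 5.69 and 2.58 CPM with ZGW serum, nearly the same as its antisense partner Tsix, from which counts without strand cannot separate it. The Y-linked Eif2s3y ran from 1.022 to 29.4 CPM in control, with replicate 3 highest, and from 4.98 to 6.95 CPM with ZGW serum. The sexes of the pooled embryos are not given.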
